A study of Mus musculus with 8 samples.

Results

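The genes described here are 10 nuclear receptors that bind DNA together with a retinoid X receptor (RXR). They are the retinoic acid receptors (RARs) Rara, Rarb and Rarg, the liver X receptors (LXRs) Nr1h2 and Nr1h3, the peroxisome proliferator-activated receptors (PPARs) Ppara, Ppard and Pparg, and the thyroid hormone receptors (TRs) Thra and Thrb. They were chosen by receptor family, and the probes were found through the RefSeq accession that the array files give. These 10 genes are among 19751 named on the array, and 17 of its 39429 probes belong to them.

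Gene expression was measured in AtT20 cells, a mouse line of pituitary corticotroph tumor cells that secrete ACTH, on single-color Agilent arrays with Cy3 label. HX630 is a synthetic agonist that binds the RXRs. The control group was 4 samples of AtT20 cells incubated without HX630 for 48 hr in DMEM with 1% stripped serum. The HX630 group was 4 samples incubated with 10 μM HX630 for the same time in the same medium. AtT20 is a single tumor line, and the labels do not say that the samples of a group were separate cultures, so the p-values measure only the spread between these samples.

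A nuclear receptor is a transcription factor that is switched by a small lipid-soluble ligand. RARs, LXRs, PPARs and TRs each form a pair with an RXR and bind 2 copies of a short hexamer set in a row, in which the number of bases between the copies helps to select the pair. PPAR and LXR pairs are called permissive because an RXR ligand alone can activate them, whereas RAR and TR pairs respond mainly to the ligand of the partner. In the pituitary, thyroid hormone acts through its receptors to lower TSH. Retinoic acid has been reported to act on corticotroph tumor cells to lower Pomc transcription, whereas Am80, a synthetic RAR agonist, was reported to raise it in AtT20 cells.

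A signal in this text is the log2 of the processed intensity minus the 75th percentile of its array, so that 0 is the 75th percentile. A fold change is the HX630 mean minus the control mean on that scale, with its standard error (SE) from limma. Genes were called at a Benjamini-Hochberg adjusted p below 0.01 in limma and a fold change above 1.5. The 75th percentile intensity lay between 1335 and 1899 on the 8 arrays, and 69.7% to 73.5% of the probes were well above background. All control arrays were on 1 slide with 1 scan time and all HX630 arrays on another, so the treatment cannot be told apart from slide or scan. Of the probes tested, 2131 were called higher and 3185 lower with HX630, and with the arrays set to their spike-in probes these counts were 4680 and 1787. Of 7 corticotroph markers, 6 were well above background on all 8 arrays, among them Pomc and Tbx19, while Avpr1b was on none. Of 7 markers of other pituitary cells, 3 were well above background on all 8 arrays (Gh, Lhb and Nr5a1), and Prl and Tshb were on none.

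HX630-treated cells had lower signals of most partner receptors. Of the 10 receptors, 9 were tested, and all 9 had a lower mean with HX630, of which Rara turned to slightly higher when spike-in probes or no scaling were used. Nr1h3, Ppard and Rarb were called lower and no receptor was called higher. Over all genes tested, 11.2% were called lower. With no threshold on the fold change, 7 of the 9 receptors were lower at an adjusted p below 0.01 in limma, against 27.2% of all genes. With the spike-in probes this count was 2, Nr1h3 and Ppard, against 11.5% of all genes. In 7 of the 9, every HX630 array was below every control array, against 32.8% of all genes. The median change of the 9 receptors was -0.37, with a range of -1.26 to -0.22, against a median of -0.03 over 15320 genes. Fewer expressing cells and less RNA per cell cannot be told apart in RNA of whole cultures.

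**Figure D1:**
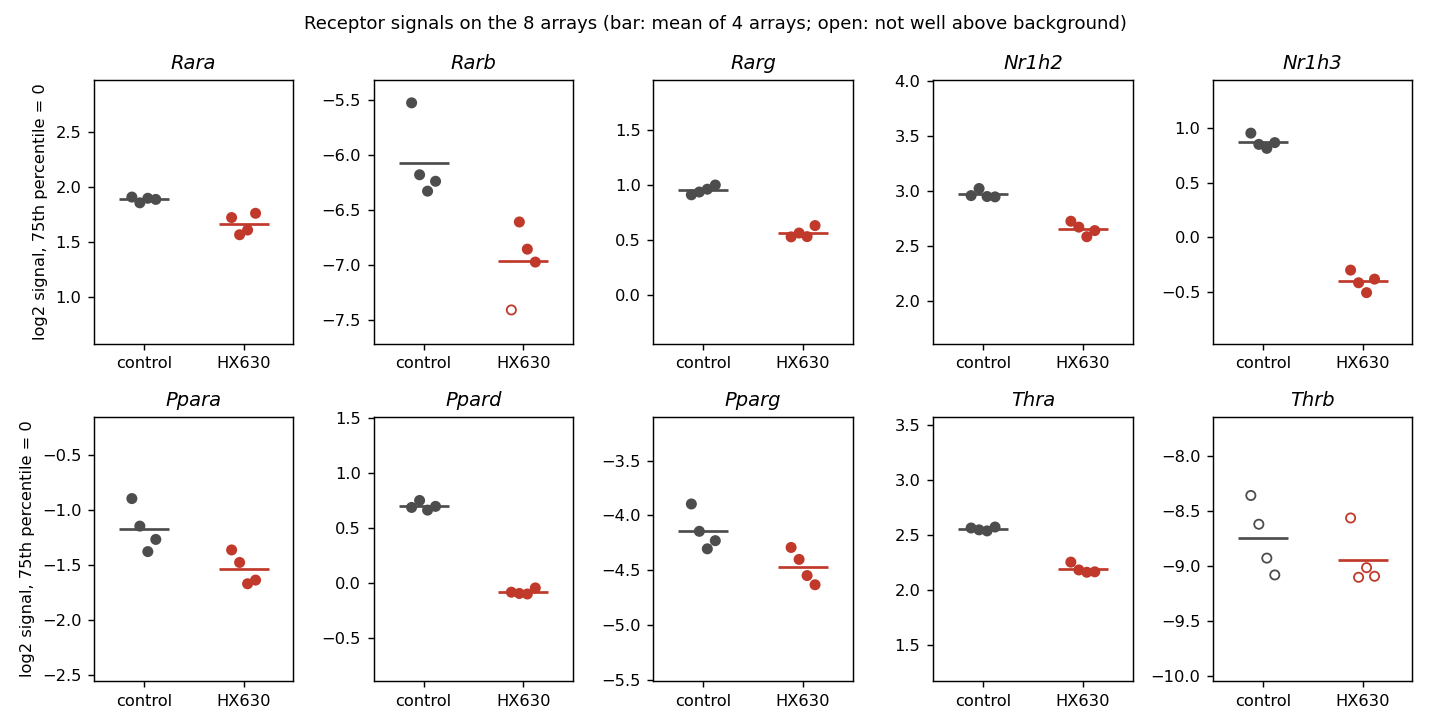
Signal of the brightest probe of each of the 10 receptors (log2, y axis, a span of equal height in every panel) on the 4 control and 4 HX630 arrays, with a bar at the mean of each group. The groups are apart for Nr1h3 and Ppard, overlap for Ppara and Pparg, and all points of Thrb are open because no array measured it well above background.

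RefSeq promoter windows on GRCm38.p6, from 250 bases before to 50 bases after each annotated start, were found for 9 of the 10 receptors, 17 windows in all. Thra had none. The half-site that these receptors bind was searched on both strands as any of 4 hexamers. One was AGGTCA, the consensus form. A common variant was AGTTCA, which was searched in the same way. The remaining forms were GGGTCA, together with, as the last of the set, GGTTCA. A half-site was in 8 of the 17 windows (47.1%), against 43.7% of all 32851 windows. A pair of half-sites in a row, spaced by 0 to 5 bases, was in 1 window, that of Rarb, against 0.907% of all windows. The pair in Rarb is spaced by 5 bases, which 0.0974% of all windows hold. Such a match is a description of the sequence and shows no binding in these cells.

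The 250 bases before the start are printed for the 3 receptors called lower, Rarb, Nr1h3 and Ppard, with the half-sites in capitals. The Rarb stretch is on the minus strand (GRCm38.p6 chr14:16575477-16575726), and holds GGGTCA from base -83 and a pair made of GGTTCA from base -53 and, ending at base -37, AGTTCA, counted so that -1 is the last base before the start. The Nr1h3 stretch is on the minus strand (chr2:91195036-91195285) and the Ppard stretch on the plus strand (chr17:28232504-28232753), and neither holds one of the 4 hexamers.
Rarb: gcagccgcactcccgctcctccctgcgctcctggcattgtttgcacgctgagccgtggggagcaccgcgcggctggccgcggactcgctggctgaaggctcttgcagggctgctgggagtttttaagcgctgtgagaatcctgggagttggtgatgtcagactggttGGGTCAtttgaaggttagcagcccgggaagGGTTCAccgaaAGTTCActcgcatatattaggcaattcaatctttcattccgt
Nr1h3: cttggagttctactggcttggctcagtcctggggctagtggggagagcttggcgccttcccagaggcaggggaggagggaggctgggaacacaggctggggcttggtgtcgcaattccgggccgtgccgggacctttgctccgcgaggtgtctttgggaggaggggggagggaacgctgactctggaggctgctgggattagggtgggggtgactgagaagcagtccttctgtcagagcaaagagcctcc
Ppard: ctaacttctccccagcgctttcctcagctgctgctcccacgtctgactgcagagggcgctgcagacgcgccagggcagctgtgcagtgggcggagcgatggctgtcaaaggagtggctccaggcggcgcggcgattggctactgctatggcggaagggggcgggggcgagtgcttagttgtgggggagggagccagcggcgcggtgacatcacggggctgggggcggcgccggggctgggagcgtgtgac

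The LXRs are receptors for oxidized cholesterol. Nr1h3 encodes LXRα, which drives genes of cholesterol efflux and fatty acid synthesis, and it had the largest change of the 9 receptors. Its brightest probe (A_66_P120249) had signals of 0.95, 0.85, 0.81 and 0.86 on control arrays 1 to 4. On HX630 arrays 1 to 4 the signals were -0.30, -0.41, -0.50 and -0.38. The groups did not overlap, and each varied far less than they differed. The mean signal of Nr1h3 fell from 0.87 ± 0.059 (SD, n = 4) to -0.40 ± 0.085, and its log2 fold change was -1.26 (SE 0.053, limma adjusted p = 7.94e-07), which left 41.6% of the control level.

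A second Nr1h3 probe (A_55_P2128597) changed to the same extent. Its signals were 0.27, 0.19, 0.13 and 0.21 on the control arrays and -1.04, -1.17, -1.25 and -1.10 on the HX630 arrays. The log2 fold change was -1.34 (SE 0.055, limma adjusted p = 7.36e-07). Before any scaling, the intensity of the brightest probe was 2441 to 3267 on the control arrays and 1292 to 1467 on the HX630 arrays, so the groups were apart without scaling too. Nr1h3 was called in all 23 alternative settings, with log2 fold changes from -1.30 to -1.01. A fall as large as that of Nr1h3 or larger was seen in 3.09% of the genes tested.

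Nr1h2 encodes LXRβ, which is found in most tissues. Its signals were 2.96, 3.02, 2.95 and 2.95 on the control arrays and 2.73, 2.67, 2.59 and 2.64 on the HX630 arrays. The groups did not overlap, but the difference was small. The mean went from 2.97 ± 0.036 (SD, n = 4) to 2.66 ± 0.059, which is a log2 fold change of -0.31 (SE 0.041, limma adjusted p = 3.2e-04), which did not reach the fold threshold.

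The PPARs bind fatty acids and their derivatives. Ppard encodes PPARδ, a regulator of fatty acid oxidation found in most tissues, and was the PPAR with the largest change. Its probe (A_66_P124715) had signals of 0.69, 0.75, 0.66 and 0.70 on the control arrays. The HX630 arrays had -0.09, -0.10, -0.10 and -0.05. The groups were far apart relative to their spread. The mean signal of Ppard fell from 0.70 ± 0.037 (SD, n = 4) to -0.083 ± 0.025, and its log2 fold change was -0.78 (SE 0.033, limma adjusted p = 8.65e-07), which left 58.2% of the control level. Its intensity before scaling was 2147 to 2946 in control and 1699 to 1839 with HX630. Ppard was called in 21 of 23 alternative settings, and with the spike-in probes or with no scaling its log2 fold change was -0.52, below the fold threshold.

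Ppara encodes PPARα, the receptor targeted by fibrates. Its brightest probe had signals of -0.89, -1.14, -1.38 and -1.27 on the control arrays and -1.36, -1.47, -1.67 and -1.64 on the HX630 arrays. HX630 array 1 was above control array 3, so the groups overlapped. The log2 fold change was -0.37 (SE 0.115, limma adjusted p = 0.0261) and Ppara was not called. Of its 2 other probes, one was well above background on 2 of the 8 arrays and the other on none, so neither was tested.

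Pparg encodes PPARγ, the adipocyte receptor bound by thiazolidinediones. It had 1 probe with 10 spots, and its signals were -3.90, -4.14, -4.30 and -4.23 on the control arrays and -4.29, -4.40, -4.55 and -4.63 on the HX630 arrays. The groups overlapped by a narrow margin at HX630 array 1. The log2 fold change was -0.32 (SE 0.107, limma adjusted p = 0.0314) and Pparg was not called. Ppara and Pparg had the same exact two-sided permutation p of 0.0571 over the 70 regroupings of the 8 arrays, above the smallest that the design allows (0.0286).

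The RARs bind all-trans retinoic acid. Rarb encodes RARβ, whose promoter is a textbook target of RAR pairs through a direct repeat spaced by 5 bases, and such a repeat is in the sequence printed above. Its brightest probe (A_55_P1962154) had signals of -5.53, -6.18, -6.33 and -6.24 on the control arrays and -7.41, -6.61, -6.86 and -6.97 on the HX630 arrays. The groups did not overlap, although control array 1 and HX630 array 1 stood at the outer ends and the spread was the widest of the 9 receptors. The mean signal of Rarb fell from -6.07 ± 0.37 (SD, n = 4) to -6.96 ± 0.33, and its log2 fold change was -0.89 (SE 0.222, limma adjusted p = 0.00934), which left 53.8% of the control level.

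This call was near the threshold and near background. HX630 array 1 was not well above background for Rarb, and the lowest signal well above background on the arrays lay between -7.56 and -6.48. Rarb was called in 4 of the 22 alternatives that tested it, with adjusted p from 0.00922 to 0.0412. Leaving out HX630 array 2 kept the call, and leaving out any of the 7 other arrays ended it, with log2 fold changes from -1.01 to -0.71 over the 8. A second Rarb probe was well above background on 0 of the 8 arrays and was not tested.

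Rara encodes RARα, the most widely expressed RAR. Its brightest probe had signals of 1.91, 1.86, 1.90 and 1.89 on the control arrays and 1.72, 1.57, 1.61 and 1.76 on the HX630 arrays. All HX630 arrays were lower, by the smallest margin of the 7 receptors with separate groups. The log2 fold change was -0.22 (SE 0.050, limma adjusted p = 0.00573), and a second probe gave -0.18 (adjusted p = 0.0296) with groups that overlapped. The direction of Rara flipped to 0.03 with the spike-in probes and with no scaling, so it was not stable to the scaling.

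Rarg encodes RARγ, best known in skin and cartilage. Its signals were 0.91, 0.94, 0.97 and 1.00 on the control arrays and 0.53, 0.57, 0.53 and 0.63 on the HX630 arrays. The groups did not overlap. The mean went from 0.96 ± 0.038 (SD, n = 4) to 0.57 ± 0.048, which is a log2 fold change of -0.39 (SE 0.038, limma adjusted p = 6.78e-05), under the fold threshold.

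Thra encodes TRα, the TR of heart, brain and most other tissues. Its brightest probe had signals of 2.56, 2.54, 2.53 and 2.57 on the control arrays and 2.25, 2.18, 2.16 and 2.16 on the HX630 arrays. The groups did not overlap and the spread of the control arrays was the narrowest of the 9 receptors. The log2 fold change was -0.36 (SE 0.034, limma adjusted p = 4.8e-05), which left 77.7% of the control level, so Thra was not called. A second Thra probe gave -0.13 (SE 0.079, limma adjusted p = 0.182) and its groups overlapped, so the 2 probes did not show the same change. Thrb encodes TRβ, the receptor through which thyroid hormone lowers TSH, and neither of its 2 probes was well above background on any array. No level or change is therefore given for Thrb.

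**Figure D2:**
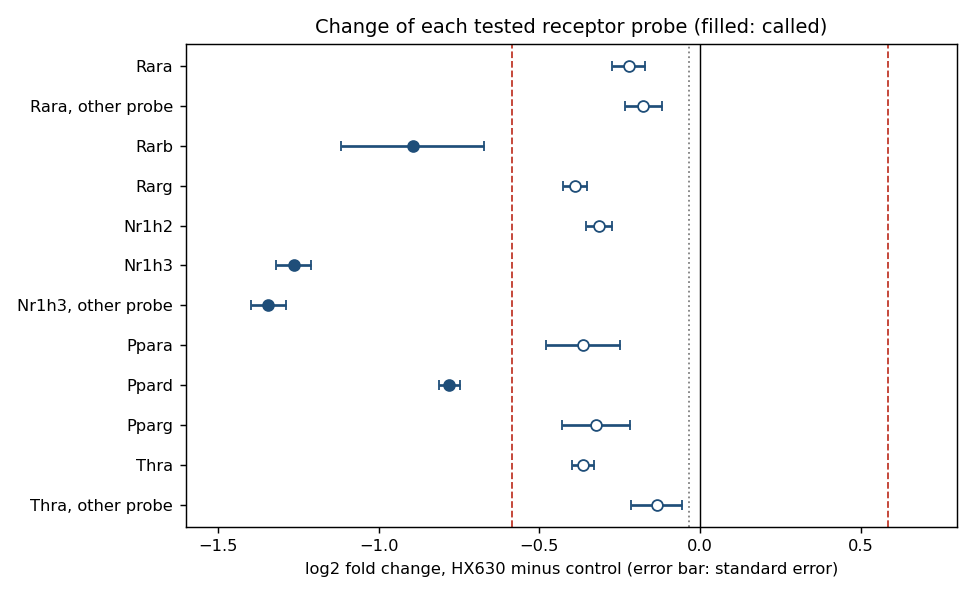
Log2 fold change, HX630 minus control, of the 12 tested probes of the receptors (points) with the SE (bars); filled points were called. All points are below 0 (Rara lies at 0.03 with the spike-in probes), the dashed lines mark the fold threshold of 1.5, and the dotted line is the median of all genes at -0.03.

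The smaller changes varied with the scaling. When spike-in probes set the scale, the median of all genes moved up by 0.256 on the log2 scale. The receptors moved with it, and only Nr1h3 was then called lower. Subtracting the median of all genes cancels any shift common to an array, so only quantile normalization and normexp background correction could give other relative values. Relative to that median, Rara was at -0.19 with the 75th percentile, -0.21 with quantile normalization and 0.021 with normexp. The other 8 receptors were below 0 in all of these. Before scaling, every HX630 array was below every control array for Nr1h3 and Ppard, and the intensities of the other 7 overlapped. That separation was seen in 11.1% of all genes. Rara had 4911 to 6937 in control and 5453 to 6435 with HX630, and Thra had 7879 to 10794 and 8168 to 8581.

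**Figure D3:**
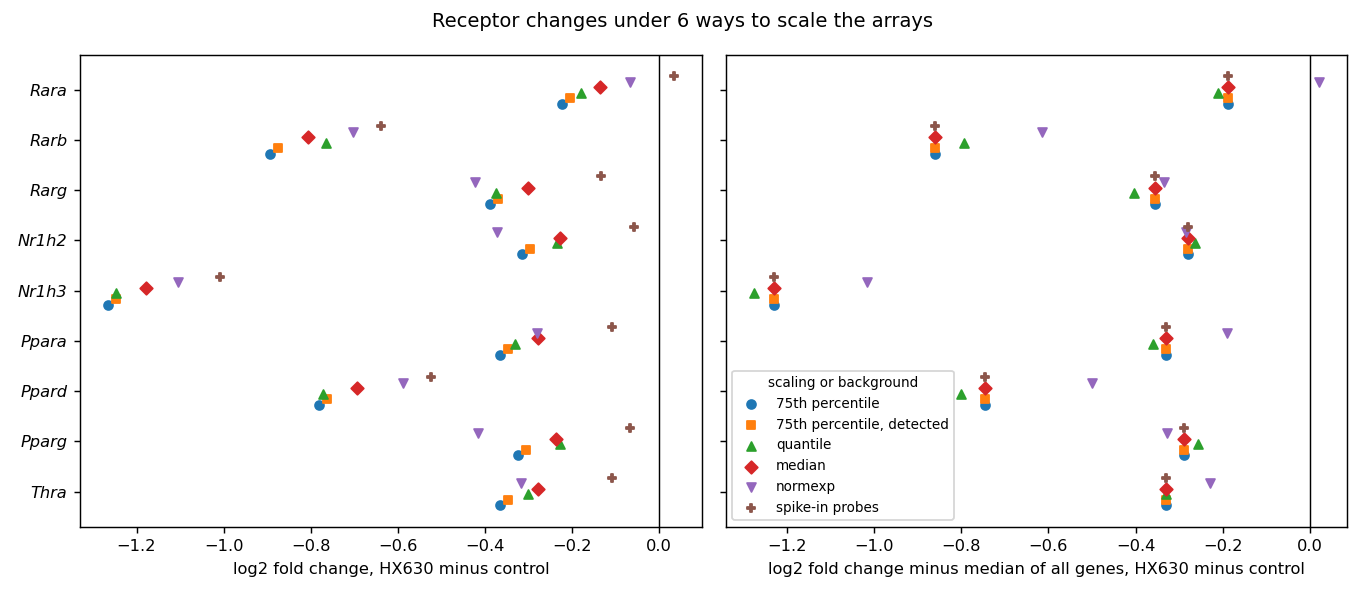
Log2 fold change of the 9 tested receptors under 6 scalings or background corrections (symbols), as measured (left) and after subtraction of the median of all genes (right). Nr1h3 is lowest in both panels, and Rara lies above 0 with the spike-in probes on the left and with normexp on the right.

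Whether receptors of one family changed to the same extent was tested within arrays, where scaling cancels. For 2 receptors, the difference of their signals on each array was compared between groups with the exact two-sided permutation test. Of 8 possible pairs within families, 7 could be tested. The difference Nr1h2 minus Nr1h3 was higher by 0.95 on the HX630 arrays, with no overlap between groups, so Nr1h3 fell by more than Nr1h2 did. Its exact p was 0.0286, the smallest that the design can give, and 0.08 after Benjamini-Hochberg adjustment over the 7 pairs. Rara minus Rarg was higher by 0.17, also without overlap and with the same exact p and adjusted p.

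The other 5 pairs overlapped. Rara minus Rarb was higher by 0.67 and Ppara minus Ppard by 0.42, while Ppard minus Pparg fell by 0.46, each with an exact p of 0.0571 and an adjusted p of 0.08. Rarb minus Rarg differed by -0.50 (exact p = 0.0857) and Ppara minus Pparg by -0.04 (exact p = 0.171). No pair passed an adjusted p of 0.05. The smallest possible exact p of 0.0286 cannot pass after adjustment over 7 pairs unless most of the pairs reach it. This outcome therefore cannot decide on any single pair.

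**Figure D4:**
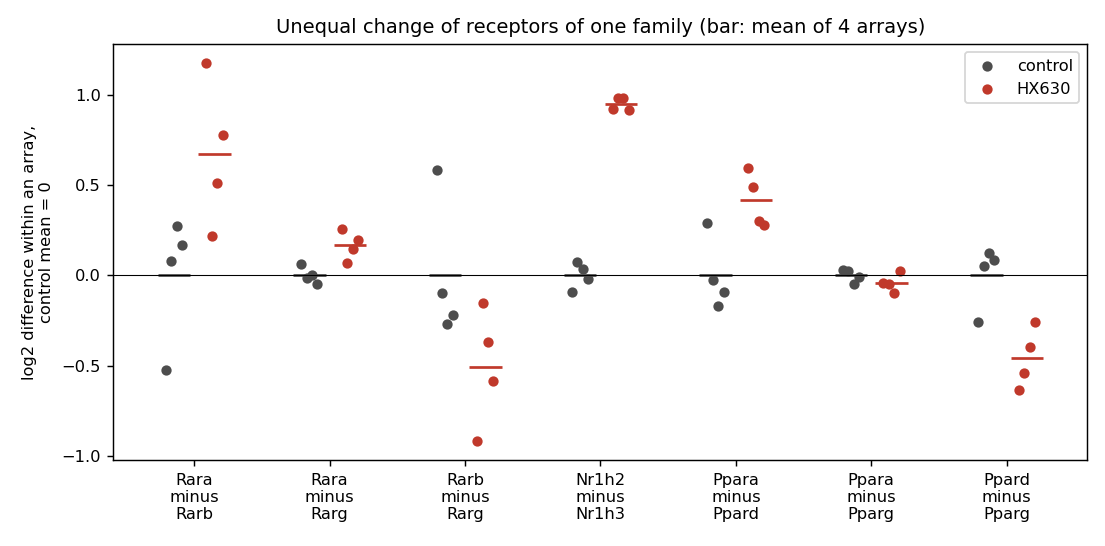
Difference of the log2 signals of 2 receptors on the same array, shifted so that the control mean is 0 (y axis), for 7 pairs within families, with 4 control and 4 HX630 arrays (points) and group means (bars). The HX630 points lie apart from the control points for Rara minus Rarg and Nr1h2 minus Nr1h3.

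By the smallest root mean square difference between control-centred signals over the 8 arrays, the genes most like Nr1h3 were Dync1i1, Syne4 and Gm5796. Dync1i1 encodes an intermediate chain of the dynein motor and Syne4 a protein of the nuclear envelope. Their differences from Nr1h3 were 0.032, 0.0415 and 0.0438, and their log2 fold changes were -1.29, -1.29 and -1.28.

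The RXRs themselves, which are the receptors that HX630 binds, were not called at their brightest probes. Rxrb was the nearest to the receptors above, with a log2 fold change of -0.33 (SE 0.031, limma adjusted p = 5.14e-05). Rxrg gave -0.19 (adjusted p = 0.0576) and its other probe 0.24 (adjusted p = 0.686). The brightest Rxra probe gave 0.10 (adjusted p = 0.503). The other Rxra probe gave -0.68 (SE 0.110, limma adjusted p = 0.00107) and met both thresholds of a call, so the 2 Rxra probes disagreed. That other probe had the higher control mean, -3.66 against -3.93.

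Among 7 other receptors that can pair with an RXR, 4 were tested. Nr4a1, the orphan receptor Nur77, fell by 3.33 on the log2 scale (SE 0.129, limma adjusted p = 5.65e-07), to 9.93% of the control level. Nr4a2, its relative Nurr1, fell by 1.89 (SE 0.059, limma adjusted p = 2.56e-07), with -2.11 at its other probe. Nr1h4, the bile acid receptor FXR, had -0.12 (adjusted p = 0.595) and Nr1i2, the xenobiotic receptor PXR, had -0.61 (adjusted p = 0.119), but it was well above background on 3 control arrays and only 1 HX630 array, so its HX630 mean rests mostly on signals that were not. Vdr, the vitamin D receptor, was well above background on 1 control array and no HX630 array, and Vdr, Nr1h5 and Nr1i3 were not tested.

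The counts of called genes in the lists that follow stand beside 8.38% called higher and 11.2% called lower over all genes tested. Of 14 genes that supply or remove the receptors' ligands, 11 were tested, 2 rose and 2 fell, with a median of -0.17. With the array median or the spike-in probes, 4 were called higher, and the median was 0.084 with the spike-in probes. Dio2, the deiodinase that activates thyroid hormone, rose by 0.92 (limma adjusted p = 4.92e-07). Dio1, another deiodinase, fell by 1.66 (adjusted p = 1.32e-05), and Cyp27a1, which makes an oxidized cholesterol that binds LXRs, fell by 1.35 (adjusted p = 8.72e-05). Dio1 and Dio2 thus moved in opposite directions.

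Coregulators carry the effect of the bound receptor to the transcription machinery. All 11 listed were tested. At their brightest probes 3 fell and none rose, against 11.2% and 8.38% of all genes, with a median of -0.10 that was 0.15 with the spike-in probes. Ncor1, named here after its value was seen, had 0.30 at its brightest probe and 0.76 at its other probe. Ppargc1a, a PGC-1 coactivator that acts with PPARs, fell by 4.94 (limma adjusted p = 7.74e-07), and its relative Ppargc1b fell by 2.02 (adjusted p = 1.59e-05).

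Of 14 genes known as RAR targets, 9 were tested, 3 fell and none rose, against 11.2% and 8.38% of all genes, with a median of -0.32. With the spike-in probes this median was -0.068 and 1 RAR target was called higher. Dhrs3, which reduces retinal, fell by 1.86 (limma adjusted p = 1.22e-07). Cyp26b1, which degrades retinoic acid, fell by 1.49 (adjusted p = 2.2e-05), and the transglutaminase Tgm2 fell by 1.17 (adjusted p = 4.85e-07). Of 14 TR targets, 12 were tested, 2 fell and none rose, a share lower that is near the 11.2% of all genes, with a median of -0.27. The 2 that fell were Dio1, given above, and the growth hormone gene Gh, which fell by 0.79 (adjusted p = 6.06e-04). Gh is also among the markers of other pituitary cells. With the spike-in probes, 1 TR target was called lower and 1 higher, and the median of the TR targets was -0.012.

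Of 16 LXR targets, 11 were tested, 4 rose and 1 fell, against 8.38% and 11.2% of all genes. Their median was 0.19, and it was the one median above 0 among the 8 lists, whereas with the spike-in probes 5 of the 8 were above 0. Lpcat3, which remodels phospholipids, rose by 1.33 (limma adjusted p = 6.0e-07). Scd1 and Scd2, which desaturate fatty acids, rose by 1.06 (adjusted p = 6.2e-06) and 0.62 (adjusted p = 2.19e-06). Arl4c, a small GTPase, fell by 0.61 (adjusted p = 1.15e-04), but with the array median or the spike-in probes no LXR target was called lower. Mylip, which marks the LDL receptor for breakdown and is named here after its value was seen, rose by 0.61 (adjusted p = 2.29e-05). Its other probe gave 0.32, under the fold threshold. The efflux transporters Abca1, Abcg5 and Abcg8 were not tested because they were not well above background on enough arrays. Abcg1, another efflux transporter, was tested and not called (0.10, limma adjusted p = 0.0483).

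Of 32 PPAR targets, 27 were tested, 6 rose and 6 fell, against 8.38% and 11.2% of all genes, with a median of -0.19. This balance held at the 75th percentile, and the counts were 6 higher and 4 lower with the array median and 7 higher and 1 lower with the spike-in probes, where the median was 0.062. Cpt1a, which admits fatty acids to mitochondria, rose by 1.60 (limma adjusted p = 1.72e-07), and the mitochondrial carriers Ucp3 and Ucp2 rose by 1.10 (adjusted p = 3.85e-04) and 0.99 (adjusted p = 9.84e-07). Cpt1b, the muscle form of Cpt1a, fell by 0.95 (adjusted p = 6.13e-06). Some of the listed targets also respond to other receptors, and which receptor bore on each change was not tested.

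**Figure D5:**
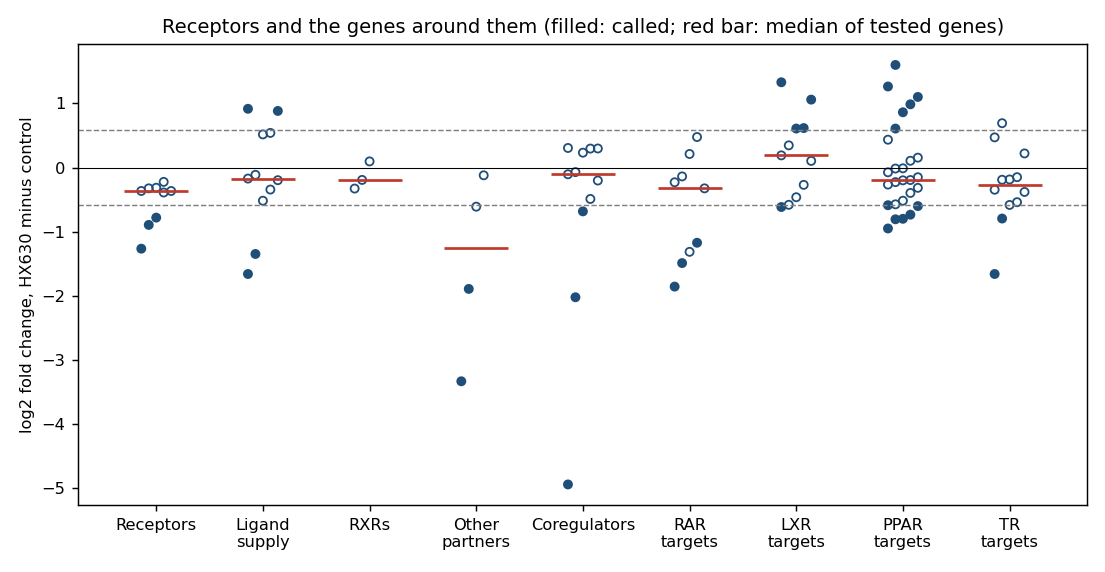
Log2 fold change, HX630 minus control, of the tested genes of each list (points; filled, called; red bar, median of the tested genes), with dashed lines at the fold threshold of 1.5. The receptors lie below 0, the medians of the lists lie below 0 except that of LXR targets at 0.19 (5 of the 8 lists are above 0 with the spike-in probes), and Ppargc1a at -4.94 is the lowest point.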

How the data were processed

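RNA of 4 control and 4 HX630 samples was hybridized to 1 array each. The authors deposited Feature Extraction 10.7.3.1 output, in which the processed intensity of a spot is background subtracted and spatially detrended, with no scaling between arrays. A second deposited table holds log2 values, which matched the processed signal scaled to the 75th percentile per array and served as an alternative.

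R 4.3.3 and limma 3.58.1 were used. The 1377 control spots and all outlier spots were dropped, and the spots of a probe were averaged on the log2 scale. Each array's 75th percentile over its probes was then subtracted. A probe was tested when well above background on at least 4 of 8 arrays (28553 probes), with lmFit and eBayes and Benjamini-Hochberg adjustment over all of them. A gene was represented by its brightest tested probe. Names came from RefSeq accessions (GRCm38.p6 table), which matched 66.1% of the probes. The array design uses another build, so probe positions are not given. Single differences were tested by exact permutation. The code was tested on simulated data.

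Members and lists were chosen with earlier results of these data known. All 10 receptors, the RXRs and other partners were named with all their tested probes, up to 4 called genes of each list with the largest changes on probes well above background on all 8 arrays, and 3 genes most like the receptor with the largest change. Of the genes this rule names, 2 are not reported here. Alternatives were other scalings, normexp (offset 16), other filters, tests and thresholds, a block for the replicate number, and leaving out each array. No scaling between arrays was added after seeing the data. The number of arrays limits the precision.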

Additional observations from a re-analysis of the deposited data

Results flagged for a closer look

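Of 24 groups of 4 arrays over the 12 tested receptor probes, 2 held 1 array far from the other 3, as judged by its gap to the nearest array divided by the range (Dixon's 95% critical value for 4 samples). Chance gives about 1.2. For the second Rara probe, control array 3 had -1.38 against a mean of -1.26 on the other control arrays (ratio 0.879). For Nr1h2, control array 2 had 3.02 against a mean of 2.95 (ratio 0.849).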

How the results depend on the processing

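Nr1h3 was called lower under all 23 alternatives. The 3 receptors called lower became 1 with the spike-in probes and 1 with no scaling (chosen after seeing the data), and 7 with no fold threshold, and were 2 to 3 with 1 array left out. Probes called higher and lower were 4680 and 1787 with the spike-in probes, 4718 and 1776 with no scaling, and 5763 and 7246 with no fold threshold, and 1355 were higher with normexp. With 1 array left out they ranged from 1944 to 2568 and from 2880 to 3370. Rara reversed to 0.033 with the spike-in probes and with no scaling, and Ppara minus Pparg to 0.136 with normexp. In the lists, 4 ligand supply genes were higher and 0 LXR targets lower with the median or the spike-in probes. With the spike-in probes, 1 RAR target and 1 TR target were higher, and 1 PPAR target and 1 TR target lower. The median of 5 of the 8 lists was then above 0. The cause was not tested.

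With the replicate number as a block (replicate block), 2 receptors were called lower, since Rarb had an adjusted p of 0.0378 in limma, and no other receptor's call changed. Ppara and Pparg had limma adjusted p of 0.00157 and 0.00296 with the block. With no fold threshold, both were thus below 0.01 there and Rarb was not. Same-numbered arrays deviated together with correlations of -0.0096 to 0.523, and 5 of 8 arrays correlated best with their own number. The labels do not say that the numbers are pairs, so the block was kept as an alternative only. Signal over background limits Rarb, and Thrb was not measured.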
